A study of Mus musculus with 14 samples.

Results

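A set of 209 genomic regions carried a Sin3A peak in C2C12 myoblasts, no Sin3A peak in myotubes, and a Sin3B peak at one stage or both. They were chosen from the deposited peak lists alone. Peaks of all 4 lists that shared 1 bp or more were merged into 5137 regions, and a region was a member when it met these 3 conditions, which held for 4.07% of all regions. C2C12 is a mouse skeletal muscle cell line of C3H background that grows as myoblasts and fuses into myotubes. Chromatin immunoprecipitation with sequencing was used to map both proteins in myoblasts grown in 10% fetal bovine serum and in myotubes formed by confluent cells in 2% horse serum, which were parted from undifferentiated cells with dilute trypsin. No gene was altered in any group. In myoblasts each protein had 2 immunoprecipitations. In myotubes Sin3A had 2 and Sin3B had 5.

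Within a group the deposited files did not differ, and each of the 4 groups was therefore represented by 1 list, with 691 Sin3A and 2387 Sin3B peaks in myoblasts and 759 Sin3A and 3769 Sin3B peaks in myotubes. No spread between cultures could be measured, read depth was unknown, and the peaks had no height or score. A missing peak therefore does not show that a protein was absent. Peaks in the lists chose the members, so the shares and widths below are descriptions without a test. Their intervals are 95% exact binomial (Clopper-Pearson) intervals, which cover counting error only. The labels give the antibodies of both proteins the same catalogue number, and its part in the overlap of the 2 proteins was not tested. The Sin3A myoblast samples used 2 antibody lots and the myotube samples only 1 of them.

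Sin3A and Sin3B are related scaffold proteins that do not bind DNA by themselves. Their paired amphipathic helix domains dock onto sequence-specific factors such as the Mad partners of Max, and they carry the histone deacetylases HDAC1 and HDAC2, which remove acetyl groups from histones. The complexes are best known for repression, and in skeletal muscle they have been studied for their part in the exit from the cell cycle and in the muscle gene programme.

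Genes could be named for 6 of the 209 members. The sources used here name no build for the peak files, and the gene starts of the GRCm38.p6 tables at hand coincided with the peaks only on stretches of 5 chromosomes, which held 257 regions, 6 of them members (2.33%). All 6 members lay within 1 kb of a gene start, where 87.9% of all regions on these stretches did so (226 of 257), a share that the choice of the stretches by their gene starts itself makes high. With 6 members the interval ran from 54.1 to 100%. Distances were measured from the edge of the merged region, so the Sin3A peak itself can lie farther from the start. All 6 held Sin3B at both stages, as did 48.3% of all 209 members and 27.4% of all regions. With so few members nothing is read from this. For Mcm4, Prkdc and Neat1 the promoter table has no entry, and either end of the gene was taken as a start. Positions are counted from 1 in the build of the files.

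On chromosome 16, the member at 15637037 to 15638101 met the neighbouring ends of Mcm4, a subunit of the helicase that unwinds DNA in replication, and Prkdc, the catalytic subunit of the DNA-dependent protein kinase of double-strand break repair. Its Sin3A myoblast peak was 730 bp wide, and its Sin3B peaks were 456 bp in myoblasts and 896 bp in myotubes. The member at 90934397 to 90935500 covered the start of Cfap298, a gene for a protein of motile cilia, with widths of 438, 453 and 1104 bp in the same order. Of its peaks, only that of Sin3B in myotubes held the start of the promoter printed below. The third member of the chromosome, at 92695421 to 92696609, lay inside Runx1, a transcription factor gene of the runt family, 720 bp from one of its starts. Its widths were 536 bp for Sin3A and 1138 and 399 bp for Sin3B in myoblasts and myotubes. Sin3B thus had the wider peak in myotubes at Mcm4 and Prkdc and at Cfap298, and in myoblasts at Runx1.

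On chromosome 19, the member at 5490335 to 5491720 covered the start of Cfl1, which encodes cofilin, a protein that severs actin filaments. The Sin3A peak of this member was 443 bp wide, and the Sin3B peak measured 398 bp in myoblasts and 904 bp in myotubes. The start of the promoter printed below lay in the myotube Sin3B peak only. A pair of members, at 5842920 to 5844656 and at 5844873 to 5845529, lay 216 bp apart at an end of Neat1, a long noncoding RNA that builds nuclear paraspeckles. Sin3A peaks of this pair were 889 and 338 bp wide, Sin3B peaks 423 and 537 bp in myoblasts and 1124 and 571 bp in myotubes.

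Promoter sequences are shown for the 2 members that covered a start in the promoter table. The Cfap298 window met the Sin3A peak and the Sin3B peaks of both stages. The Cfl1 window met the myotube Sin3B peak only. The Sin3A peak of that member (5491189 to 5491631) and its myoblast Sin3B peak (5491323 to 5491720) lay outside the window. They are RefSeq sequences of GRCm38.p6 from 250 bases before to 50 after the start, 5′ to 3′ as the table gives them, with that table's own positions. Capitals mark CCGGAAG, the core of many ETS family sites, and GGGCGG, the GC box of Sp family factors, on either strand.
Cfap298 (GRCm38.p6 chr16:90934800-90935099, minus strand): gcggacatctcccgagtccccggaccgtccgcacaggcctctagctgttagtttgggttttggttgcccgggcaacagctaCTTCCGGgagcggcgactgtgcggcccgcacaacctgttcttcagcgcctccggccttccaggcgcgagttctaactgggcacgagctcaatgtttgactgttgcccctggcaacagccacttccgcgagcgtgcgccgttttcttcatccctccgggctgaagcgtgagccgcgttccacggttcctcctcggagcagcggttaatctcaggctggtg
Cfl1 (GRCm38.p6 chr19:5490205-5490504, plus strand): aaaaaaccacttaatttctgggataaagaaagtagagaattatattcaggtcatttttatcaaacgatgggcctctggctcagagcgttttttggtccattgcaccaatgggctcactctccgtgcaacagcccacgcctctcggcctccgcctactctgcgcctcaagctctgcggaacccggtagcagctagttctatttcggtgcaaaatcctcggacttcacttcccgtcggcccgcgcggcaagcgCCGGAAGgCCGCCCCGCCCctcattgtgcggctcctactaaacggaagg
Both of these held 1 match to CCGGAAG, which 8.91% of 32544 promoters of the same length hold, and Cfl1 held 2 to GGGCGG, found in 35.9%. The promoter at the Runx1 start, which lay outside its member and is not printed, held neither motif and 1 match to CATTCC, the TEAD site, found in 14.6%. Searched on both strands, CANNTG, the general E-box, had no match in any of the 3 promoters, where 72.3% of promoters hold it. CACGTG, the E-box of Max dimers (7.17%), CAGCTG (16.4%) and CACCTG (20.3%) are kinds of CANNTG and counted within it. Their absence thus follows from that of CANNTG. The remaining motifs without a match in the 3 were TGANTCA (7.79%), TTCCCGC (4.63%), TTGGCGC (2.47%), GCATGCG (3.60%), ATGGCGG (4.08%), the SRF CArG box (1.64%) and the MEF2 site (3.16%). The Cfap298 promoter had 63% G and C with 28 CG dinucleotides, and that of Cfl1 54.7% with 22, beside medians of 53% and 7 over all promoters. Matches are letters in these windows and do not show that a factor bound.

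Members with a Sin3B peak at both stages were the most frequent kind. Of the 209 members, 101 (48.3%, 41.4 to 55.3%) held Sin3B at both stages, 64 (30.6%, 24.4 to 37.4%) in myotubes only and 44 (21.1%, 15.7 to 27.2%) in myoblasts only. Over all 5137 regions these patterns made up 27.4, 45.2 and 18.4%. A Sin3B peak in myotubes was thus listed at 165 members (78.9%) although Sin3A was not (72.6% of all regions), and one in myoblasts at 145 (69.4%, against 45.7% of all regions). Since the rule asked for a Sin3B peak, nothing is read from these counts against those of all regions.

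How often a myoblast Sin3A region had no Sin3A peak in myotubes differed with its Sin3B peaks. Of the 683 regions with Sin3A in myoblasts (13.3% of all), 554 had none in myotubes (81.1%). This was so for 345 of 354 regions without Sin3B (97.5%, 95.2 to 98.8%) and for 44 of 46 with Sin3B in myoblasts only (95.7%, 85.2 to 99.5%). It was so for 64 of 98 with Sin3B in myotubes only (65.3%, 55.0 to 74.6%) and for 101 of 185 with Sin3B at both stages (54.6%, 47.1 to 61.9%). Nearly every region that lacked myotube Sin3B thus also lacked myotube Sin3A, and fewer of those that had it did. The rule uses these peaks, so this is a description of the lists.

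**Figure D1:**
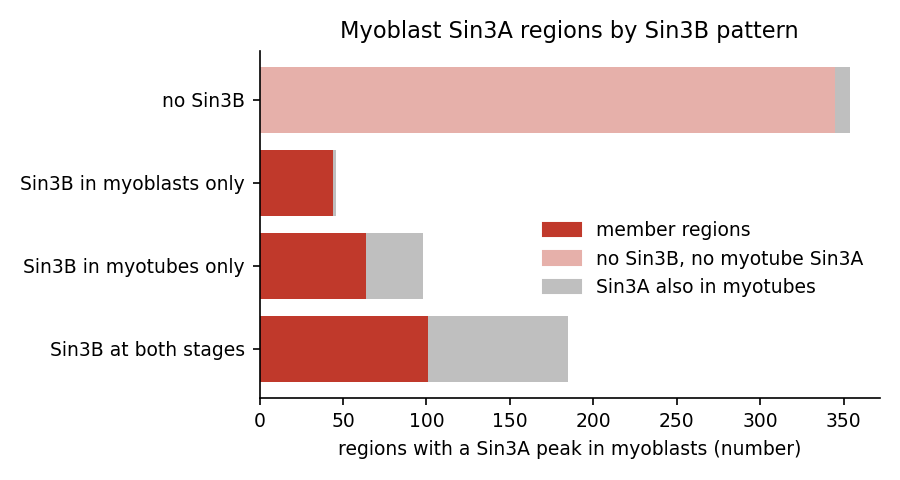
Numbers of merged regions with a Sin3A peak in myoblasts, by the stages at which Sin3B was listed (rows). Red marks the members (44, 64 and 101 regions), pale red the 345 regions with neither Sin3B nor myotube Sin3A, and grey the regions with Sin3A in myotubes too. The grey part is longest in the row with Sin3B at both stages (84 of 185 regions).

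Sin3B stayed listed at most members that held it in myoblasts, at a lower share than where Sin3A was kept. Among regions with myoblast Sin3B, 101 of 145 members (69.7%, 61.5 to 77.0%) also had it in myotubes, beside 59.8% of all regions. The share was 84 of 86 (97.7%, 91.9 to 99.7%) where Sin3A was listed at both stages, 220 of 237 (92.8%, 88.8 to 95.8%) where Sin3A was listed in myotubes only, and 1000 of 1880 (53.2%, 50.9 to 55.5%) where Sin3A was in neither list. The members lay between the regions with myotube Sin3A and those without any Sin3A, and their interval overlapped neither. When peaks up to 1 kb apart were merged, the intervals of the members (67.5%, 59.5 to 74.9%) and of the regions without Sin3A (58.9%, 56.6 to 61.2%) did overlap. In the other direction, 101 of 165 members with myotube Sin3B (61.2%, 53.3 to 68.7%) already had it in myoblasts, against 37.7% of all regions. That share was 71.2% with Sin3A at both stages, 44.6% with Sin3A in myotubes only and 33.9% with no Sin3A. The order of the 4 kinds of region thus differed between the 2 directions. Each group had 1 distinct list and no test of these differences was made.

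The share of members that kept Sin3B was higher where the myoblast Sin3B peak was wide, with overlapping intervals and no test. Among members whose myoblast Sin3B peak was no wider than the list median of 498 bp, 49 of 81 (60.5%, 49.0 to 71.2%) held Sin3B in myotubes, and among those above it 52 of 64 (81.2%, 69.5 to 89.9%). Without any Sin3A the shares were 41.9% and 65.0%, with Sin3A in myotubes only 89.8% and 94.6%, and with Sin3A at both stages 97.4% and 97.9%. Widths within a class were not matched between the kinds of region, and the part of width in their order was not tested.

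**Figure D2:**
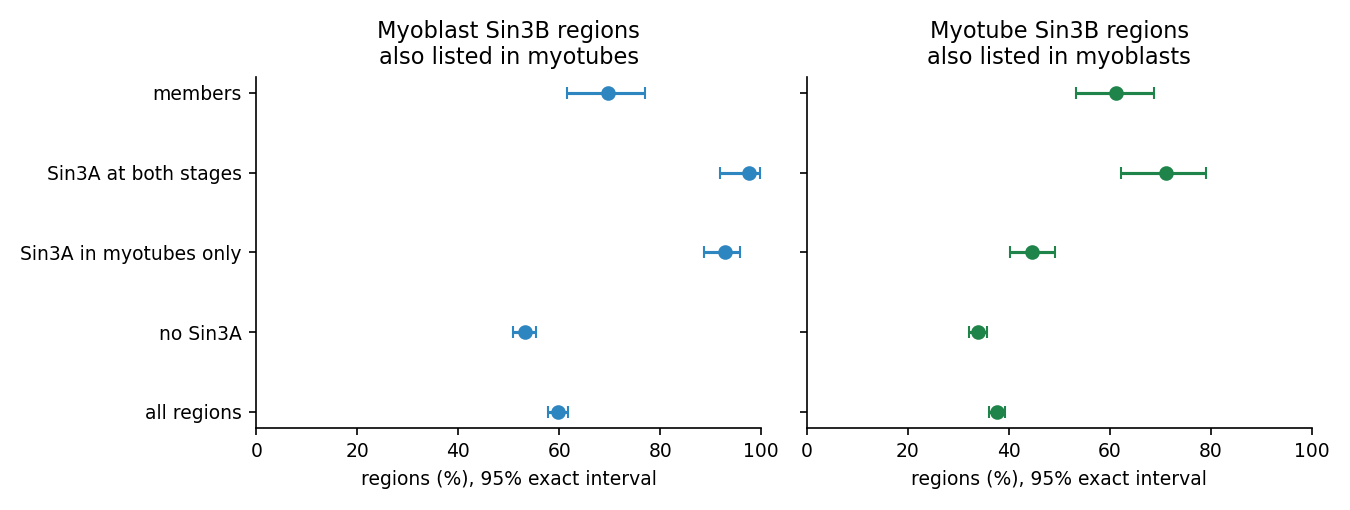
Share of Sin3B regions listed at the other stage (points, with 95% exact binomial intervals) for the members, for regions with Sin3A at both stages, in myotubes only or in neither list, and for all regions. On the left the members, at 69.7%, lie below both kinds of region with myotube Sin3A and above the regions without Sin3A. On the right they lie at 61.2%, next to the regions with Sin3A at both stages at 71.2%.

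The rule requires that a Sin3A peak shares bases with a Sin3B peak in each member, and the geometry of this overlap varied. Of the members, 206 held 1 Sin3A peak and 3 held 2. At 98 of the 101 members with Sin3B at both stages, Sin3A peaks met the Sin3B peaks of both, at 2 only the myoblast peak and at 1 only the myotube peak. At 96 of them 3 peaks had bases in common, with a median of 284 bp. Only pairs of peaks that shared bases were measured, which by itself keeps their centres close. Centres of the Sin3A and Sin3B peaks of these pairs lay a median of 107 bp apart for myoblast Sin3B (150 pairs, quartiles 38.6 and 239 bp). For myotube Sin3B it was 116 bp (167 pairs, quartiles 49.2 and 209 bp). The Sin3A peak lay wholly inside the myotube Sin3B peak in 65 of 167 pairs (38.9%) and wholly inside the myoblast Sin3B peak in 40 of 150 (26.7%). Where Sin3A was kept at both stages, its myoblast peak lay inside the myotube Sin3B peak in 55.6% of 126 pairs and inside the myoblast one in 30.6% of 85.

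**Figure D3:**
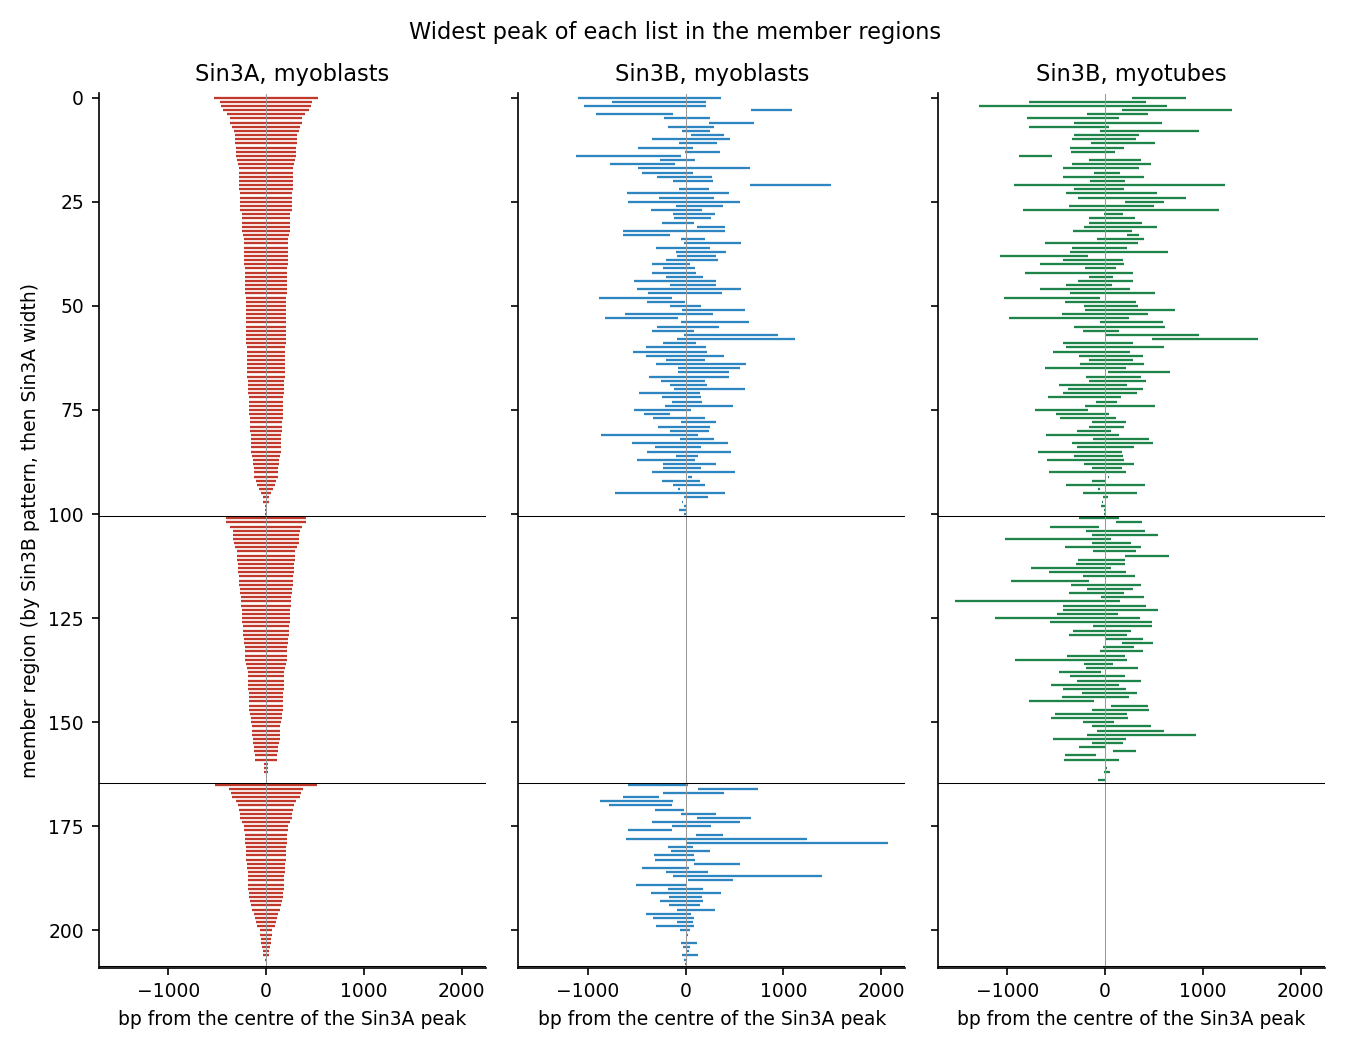
Position of the widest Sin3A myoblast, Sin3B myoblast and Sin3B myotube peak (panels) in each of the 209 members (rows), in bp from the centre of the Sin3A peak. Horizontal lines part the 101 members with Sin3B at both stages, the 64 with it in myotubes only and the 44 with it in myoblasts only. Sin3B peaks reach to either side of the Sin3A centre, and the rows at the foot of each block are the members with very short peaks.

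Sin3A peaks of the members were about as wide as those of their whole list. The median was 409 bp (212 peaks, quartiles 325 and 531 bp), against 410 bp for all 691 peaks. It was 386 bp for the 345 regions of myoblast Sin3A without Sin3B or myotube Sin3A, and 456 bp for the 125 peaks at regions with Sin3A at both stages and Sin3B. Of the member peaks, 26.9% (21.0 to 33.4%) were wider than the upper quartile of the list, 510.5 bp, which was so for 16.5% of the peaks without Sin3B and for 44% of those with Sin3A at both stages. Within the members, the Sin3A median was 410 bp with Sin3B at both stages, 436 bp with Sin3B in myotubes only and 378.5 bp with Sin3B in myoblasts only.

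Sin3B peaks also differed in width between the patterns. In myotubes their median width was 638.5 bp at members with Sin3B at both stages and 564 bp at those with it in myotubes only, against 545 bp for the whole list. In myoblasts it was 507.5 bp with Sin3B at both stages and 401 bp with it in myoblasts only, against 498 bp for the whole list. Regions with Sin3B at both stages and no Sin3A had medians of 574 bp in myotubes and 544 bp in myoblasts, also above those of the whole lists. Wider Sin3B peaks at regions listed at both stages were thus not particular to the members. Merged regions were widest with Sin3B at both stages, with a median of 808 bp, against 654 bp with Sin3B in myotubes only, 516.5 bp with Sin3B in myoblasts only and 551 bp over all regions. A merged region is the union of its peaks, so regions that join peaks of more lists tend to be wider by construction. Nothing is read from this order.

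Between stages, the Sin3B peak widened at about as many members as it narrowed. Of the 101 members with Sin3B at both stages, the widest peak was wider in myotubes at 57 (56.4%, 46.2 to 66.3%) and wider in myoblasts at 44, with medians of 652 and 520 bp and a median difference, myotube minus myoblast, of 42 bp. At the 1000 regions with Sin3B at both stages and no Sin3A it was wider in myotubes at 55.5% (52.4 to 58.6%), with a median difference of 35.5 bp. With Sin3A at both stages the share was 76.2% (65.7 to 84.8%) and the median difference 219 bp, and with Sin3A in myotubes only 68.6% (62.1 to 74.7%) and 150.5 bp. The members were thus close to the regions without Sin3A, and their interval overlapped those of the regions with myotube Sin3A at its upper end. Width is no measure of the amount bound, and peak calls of unknown depth and threshold set it.

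**Figure D4:**
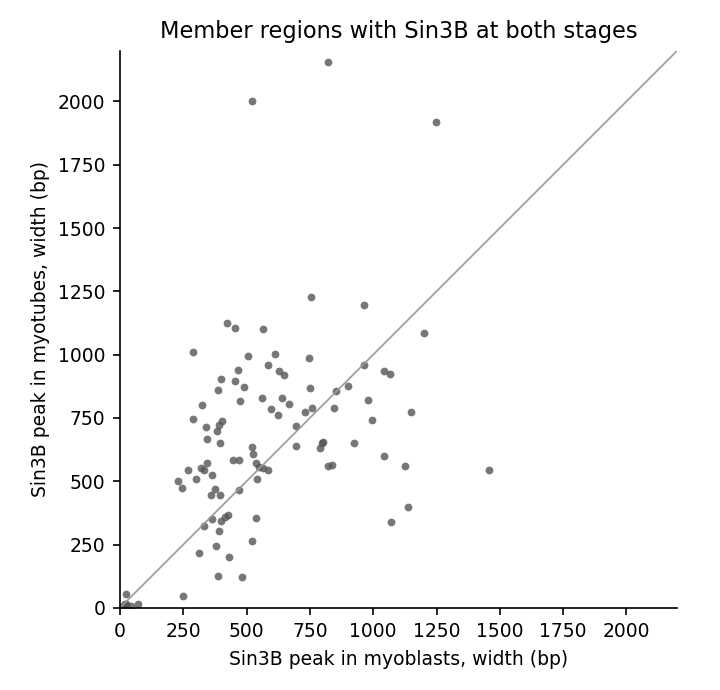
Width in bp of the widest Sin3B peak in myoblasts (x axis) and in myotubes (y axis) at the 101 members with Sin3B at both stages, 1 point per region, with the line of equal width. Points lie on both sides of the line, 57 above it and 44 below.

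The members with the widest Sin3A peaks show each pattern. With Sin3B at both stages, the region on chromosome 12 at 74145064 to 74147644 was the widest, with 2 Sin3A peaks of up to 1065 bp, 3 Sin3B peaks of up to 1458 bp in myoblasts and 2 of up to 546 bp in myotubes. On chromosome 15 at 34372553 to 34373801, Sin3A spanned 942 bp and Sin3B 964 bp in myoblasts and 1195 bp in myotubes. On chromosome 10 at 17442652 to 17444569, a Sin3A peak of 912 bp lay wholly inside a myotube Sin3B peak of 1918 bp and in part outside a myoblast one of 1249 bp. These were followed by the member at Neat1 and by a region on chromosome 2 (34626891 to 34628252), where Sin3A spanned 804 bp, and one on chromosome 3 (95462685 to 95463848), where it spanned 739 bp. The myotube Sin3B peak was narrower than the myoblast one at the regions on chromosomes 12 and 2 and wider at the others.

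With Sin3B in myotubes only, Sin3A spanned 822 bp on chromosome 5 (114580419 to 114581240) and 816 bp on chromosome 19 (53387960 to 53388775). The Sin3B peaks there, of 410 and 268 bp, lay wholly inside the Sin3A peaks. On chromosome 15 at 81640787 to 81641712, Sin3A spanned 732 bp and Sin3B 501 bp, with 307 bp in common. With Sin3B in myoblasts only, the widest Sin3A peak, of 1053 bp, was on chromosome 15 at 38229824 to 38230941, with a Sin3B peak of 619 bp. On chromosome 4 at 150978493 to 150979243, Sin3A spanned 723 bp and Sin3B 617 bp, with 589 bp in common. On chromosome 5 at 143722272 to 143723259 the peaks, of 699 and 371 bp, shared only 82 bp. The 3 members with 2 Sin3A peaks were the region on chromosome 12 above, one on chromosome 4 at 155265263 to 155266503 with Sin3B in myotubes only, and one on chromosome 5 at 37139296 to 37140161 with Sin3B at both stages.

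The gap from a member to the nearest myotube Sin3A peak had a median of 563 kb, and 2 members lay within 1000 bp, 5 within 10 kb and 24 of 209 within 50 kb. For the regions with Sin3A in myoblasts alone the median was 917 kb, with 12 within 10 kb and 28 of 345 within 50 kb. The smallest gap was 458 bp, on chromosome 11 at 74644369 to 74645735, a member with Sin3B in myotubes only whose Sin3A myoblast peak was 677 bp wide. The next were a member on chromosome 2 (53049939 to 53050420, gap of 759 bp), one on chromosome 15 (76034923 to 76036922, 4534 bp), another on chromosome 2 (25110394 to 25111521, 6666 bp) and one on chromosome 7 (28954657 to 28955186, 9332 bp). Just outside the rule were 2 regions whose Sin3A peaks of the 2 stages did not meet but were bridged by a Sin3B myotube peak, on chromosome 7 at 100022285 to 100023339, with 194 bp between them, and on chromosome 2 at 157391706 to 157392572, with 139 bp. Where the Sin3A peaks of the 2 stages did meet, they shared a median of 360 bp and at least 23 bp, the latter on chromosome 3 at 129533588 to 129534620. On the side of Sin3B, 22 of the 345 regions without it had a Sin3B peak within 1000 bp, the nearest at 79 bp on chromosome 19 at 41338405 to 41338737.

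Very short peaks were listed at some members. Libraries had been selected at about 350 bp including adapters, and 16 of the 212 Sin3A peaks of members (7.55%, 4.38 to 12.0%) spanned less than 100 bp, against 4.18% of the other Sin3A myoblast peaks. For Sin3B the shares were 7.84% at members and 2.60% elsewhere in myoblasts, and 7.14% (12 of 168, 3.75 to 12.1%) and 0.528% (19 of 3601) in myotubes. At 13 members all peaks were this short. Taking the largest Sin3A-Sin3B overlap of each member, the smallest values belonged to these regions, with 4 bp on chromosome 4 at 40381606 to 40381613, and 6 bp at a region of chromosome 6 (120544628 to 120544635) and another of chromosome 9 (63978908 to 63978987). Without all peaks under 100 bp there were 190 members, with Sin3B at both stages at 49.5%, in myotubes only at 31.1% and in myoblasts only at 19.5%.

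Members, like all regions, were unevenly spread over the chromosomes. Chromosome 2 held 28 (13.4%, 9.09 to 18.8%), chromosome 11 held 27 (12.9%, 8.69 to 18.2%), chromosome 10 held 21 (10.05%, 6.33 to 14.9%) and chromosome 15 held 20 (9.57%, 5.94 to 14.4%), where they held 8.74, 9.44, 6.27 and 6.13% of all regions. The intervals of chromosomes 11 and 15 included the share of all regions, and those of chromosomes 2 and 10 did not. These 4 chromosomes were chosen after their counts were seen. Together they held 96 members (45.9%, 39.0 to 52.9%) and 30.6% of all regions. Chromosome 8, also picked after its counts were seen, held 5 members (2.39%, 0.781 to 5.49%) and 6.23% of all regions. Chromosome 1 held 6 members (2.87%, 1.06 to 6.14%) and 6.11% of all regions, a share within its interval. Of the regions with Sin3A in myoblasts alone, chromosomes 2, 11, 10 and 15 held 8.12, 8.41, 9.57 and 11.9%, and of those with Sin3A at both stages and Sin3B they held 7.5, 10.8, 5 and 11.7%. On chromosomes 10 and 15 the share of the regions with Sin3A in myoblasts alone was thus also above that of all regions. Chromosome copy number in the cell line was not analysed here, and no test over the 20 chromosomes was made.

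**Figure D5:**
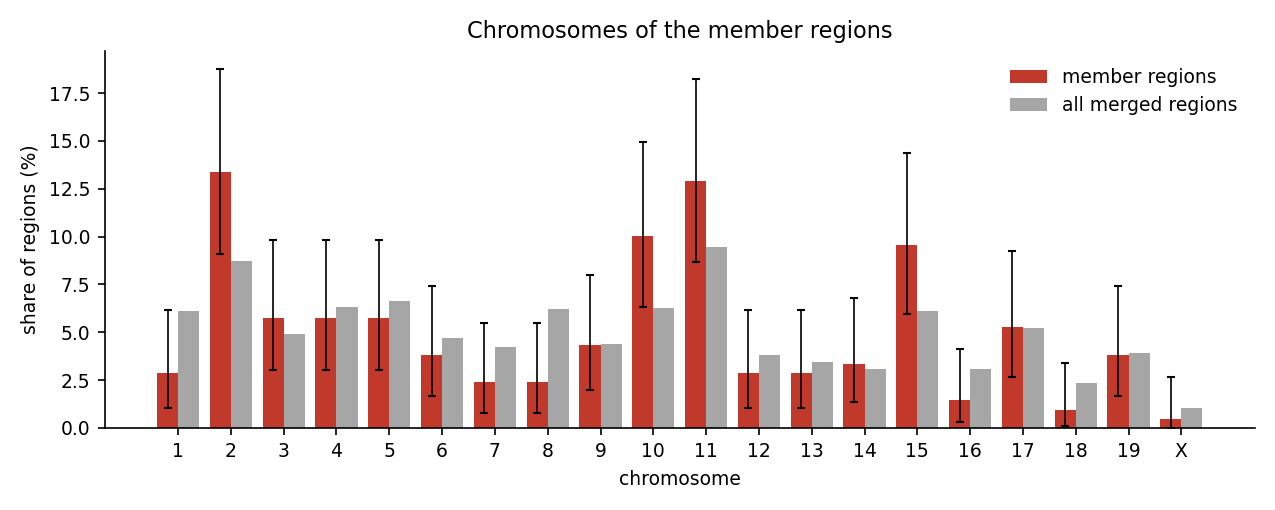
Share in percent of the 209 members (red, with 95% exact binomial intervals) and of all 5137 regions (grey) on each chromosome. The red bars stand highest on chromosomes 2, 11, 10 and 15, and on chromosome 8 the members, at 2.39%, lie below the 6.23% of all regions.

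Members close to each other were few. Within 10 kb of another member lay 5, in a pair and a triplet. The pair was that of Neat1. The triplet lay on chromosome 17, where members at 39981804 to 39982914, 39984663 to 39985191 and 39985227 to 39985679 spanned 3876 bp in all. All 3 held Sin3B in myoblasts only, and none of the 5 regions within 5 kb of them held a myotube peak of either protein. The other 2 of these 5 held Sin3A in myoblasts alone. This place lies outside the matching stretches, so no gene or sequence is given for it, and its repeat content was not examined.

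Genes of 7 lists drawn up for muscle differentiation, the cell cycle, the Sin3 complex and related processes could be placed only on the matching stretches, which held 10 of the 217 listed genes. Of these 10, 7 had a merged region at a start and 1, Mcm4 of the cell cycle and DNA replication list, had a member. That list of 48 genes had only this gene on the stretches. The stretches held 3 genes of the Sin3-HDAC list (Brms1, Arid4b and Ing1), 2 of the sarcomere and muscle membrane list (Actn2 and Actn3), 2 of the serum response list (Fosl1 and Klf6), 1 of the myogenic regulators (Snai2) and 1 of the signalling list (Hes1). None of these 9 had a member at a start, and the cytoskeleton list had 0 genes there. Cfl1, the cofilin gene with a member at its start, was not on that list. For the genes elsewhere in the genome nothing is said by these counts.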

How the data were processed

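The authors deposited peak lists as chromosome, start and end, with no score, as the files show. The aligner, caller, threshold, genome build, use of the 3 input samples and pooling of samples are not given in the labels or files used here. Library depth is unknown. The 11 files reduced to 4 distinct lists with 7606 peaks. The members and all gene lists, motifs and rules were chosen with earlier results of these data known. Peaks sharing at least 1 bp were merged, 1 was added to deposited starts, and each region was classed by the lists it held.

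Genes were named only on stretches made by joining windows of 20 consecutive peaks in which at least 50% of peak centres lay within 1 kb of a gene start of the RefSeq GRCm38.p6 promoter table (the window size was chosen after seeing the files). Each stretch was then trimmed at both ends to its first and last peak at a start, so that it can hold fewer peaks than a window. Over whole chromosomes the share was 77.2% on chromosome 16, 25% on chromosome 19 and under 10% on the others in the table. No coordinates were converted. Named regions were, by rule, the widest 8 per Sin3B pattern by Sin3A peak (the first are printed), those with more than 1 Sin3A peak, the 5 nearest a myotube Sin3A peak and the 5 with the shortest overlap (3 are printed). Members close to each other were chosen after their positions were seen. No test was run, since each group has 1 list. Merging and classing were tested on simulated lists. Scripts ran in Python 3.11.15 with pandas 2.3.3 and numpy 2.4.6, intervals came from scipy 1.17.1 and plots from matplotlib 3.10.9.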

Additional observations from a re-analysis of the deposited data

How the results depend on the processing

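No paired analysis was possible because all files of a group were identical and no test was run. For the same reason no replicate could be left out. The number of members was 194 with an overlap of 50% of the shorter peak, 221 when peaks up to 1 kb apart were merged, 185 with peaks of at least 200 bp, 157 without peaks below the lower width quartile of their list, 208 without chromosome X and 189 without chromosome 15. Of 65 alternative values for 9 results, 62 stayed within the interval or quartiles of the reported value, or within 1.5 times the reported number of members. The other 3 concerned regions without Sin3A, whose share keeping myoblast Sin3B in myotubes was 48.6% with the 50% overlap, 58.9% with merging within 1 kb and 49.2% without peaks below the lower quartile. The members' share was 72.7, 67.5 and 66.7% under these settings, and above that of the regions without Sin3A in each, although with merging within 1 kb the 2 intervals overlapped. The settings for the share of myoblast Sin3B kept, and the limit of 100 bp on peaks, were added after seeing the data. Members at a gene start fell to 66.7% of 6 with a distance of 500 bp, still within the interval of 54.1 to 100%. These 6 lay on chromosomes 16 and 19, so leaving out chromosome X or 15 could not change their share. The quartiles of width and 1.5 times the number of members are wide limits too. The count of 62 is thus no measure of robustness. Depth and threshold of the lists, both unknown, limit every statement that rests on a missing peak.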

Other observations

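Of the genes with a member, Runx1 also had other regions in the lists. It had 7 merged regions within 1 kb of the gene, of which 1 was a member. The 3 others near the same start, at 92693254 to 92693659, 92693825 to 92694218 and 92696702 to 92697247 on chromosome 16, held Sin3B in myoblasts only, with peaks of 406, 394 and 546 bp. Runx1 lies on the minus strand. The 3 regions at its upstream (5′) end, from 92823457 to 92826159, held Sin3B in myotubes only, with peaks of 589, 283 and 1031 bp. Malat1, the long noncoding RNA gene next to Neat1, had no member. It had 3 regions and no Sin3A peak at either stage. It held Sin3B in myoblasts at 5798743 to 5799155 and in myotubes at 5799483 to 5800773 and at 5800936 to 5801956 on chromosome 19.

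Another region lay within 1000 bp of 29 members. A neighbour held Sin3A in myoblasts at 8 of these, Sin3A in myotubes at 2, Sin3B in myoblasts at 13 and Sin3B in myotubes at 14. Within 10 kb, 43 members had another region, and the median gap to the nearest was 50.3 kb.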
